A study of Drosophila melanogaster with 6 samples.

Results

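The transcriptome of the *wild-type* wing disc was described from 3 of the 6 RNA-seq libraries of a study of *dLsd1* in *Drosophila melanogaster*. These were all the libraries whose genotype was labelled wild-type, and the other 3, from the *dLsd1* mutant, were not used and not compared. The *wild-type* animals were of the w1118 stock, which carries a mutation of the white eye-colour gene. They were females, taken when larvae of the third instar wander in search of a place to pupariate, and 30 wing discs were pooled for each sample. No source used here says whether the 3 samples came from separate cultures or days, so the spread between them may be technical. Polyadenylated RNA was selected from 500 ng of RNA, made into stranded libraries and sequenced on the same lane, with reads trimmed to 75 bases. Each library had the same 17471 rows for genes, all of which were described, and 171 rows for families of transposable elements (TEs).

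The wing disc is an epithelial sac of undifferentiated, dividing cells that gives rise to the adult wing, its hinge and the adjoining body wall, the notum. Signals from a few lines of cells divide it into territories. Hedgehog from the posterior compartment induces Dpp, a BMP ligand, along the anteroposterior boundary, and Notch induces Wingless, a Wnt ligand, at the dorsoventral boundary. At the wandering stage the moulting hormone ecdysone rises and prepares the disc for metamorphosis. Besides the epithelium, the dissected disc carries the precursors of the adult flight muscles and attached branches of the trachea. In bulk RNA such as this, fewer cells of a type and less RNA per cell cannot be told apart.

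Replicate 1 held 41634495 counts on gene rows, replicate 2 held 13915855 and replicate 3 held 45585960. Levels are given as CPM, the counts of a gene per 1000000 counts on gene rows of that library, always in the order of replicates 1, 2 and 3. One CPM corresponded to 41.6, 13.9 and 45.6 counts, so low values were least precise in replicate 2. A count of 0 allows up to 3 counts, or 0.0721, 0.216 and 0.0658 CPM, and this limit covers counting error only. Wing disc markers were present in every library. The wing selectors *vg* and *sd*, the pouch genes *nub* and *rn*, the dorsal selector *ap*, the distal gene *Dll* and the thoracic Hox gene *Antp* all stood above 15 CPM in each of the 3 libraries.

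Replicate 3 stood apart from replicates 1 and 2 before any gene was considered by its role. Among the 7725 genes with at least 1 CPM in each library, 498 genes, or 6.45%, differed over 2-fold between replicates 3 and 1, and 451 of them were higher in replicate 3. Between replicates 3 and 2 this held for 697 genes, or 9.02%, with 616 higher in replicate 3. Between replicates 2 and 1 it held for 59 genes, or 0.764%. The difference followed transcript length. Over 7391 protein-coding genes, the median log2 ratio of replicate 3 over 1 was -0.26 for genes whose longest transcript was up to 500 bases and 0.87 for those over 8000 bases. The corresponding medians of replicate 3 over 2 were -0.13 and 0.98. Medians of replicate 2 over 1 lay between -0.13 and 0.04 in all length classes. Spearman's rho between the ratio and transcript length was 0.57 for replicate 3 over 1, 0.48 for 3 over 2 and 0.05 for 2 over 1, across genes that are not independent replicates. Long genes are therefore given below by their value in each library, and the part that length played in any single gene was not tested.

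**Figure D1:**
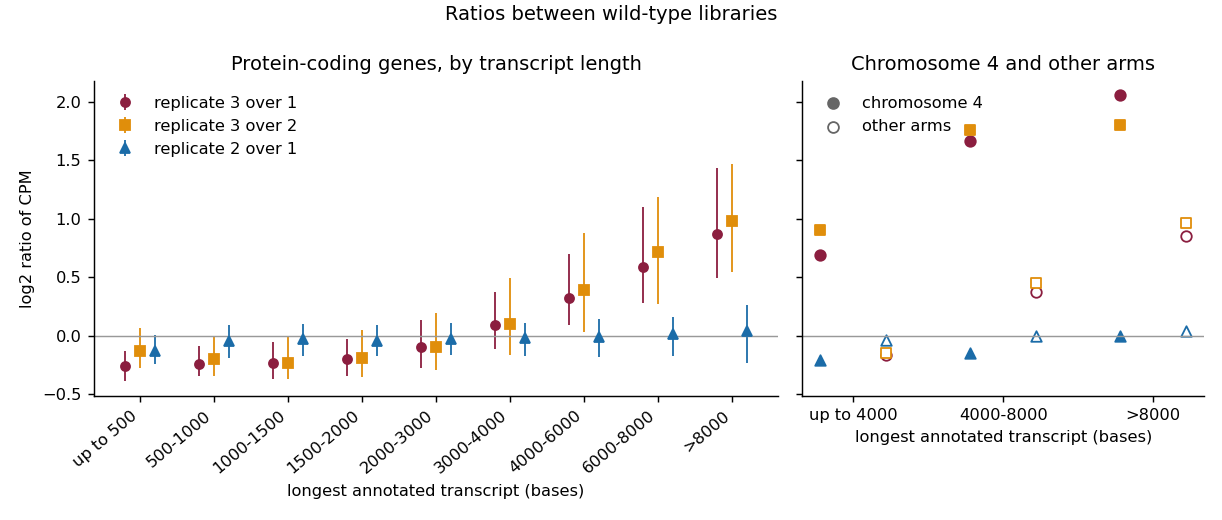
Log2 ratio of CPM between *wild-type* libraries. Left, medians (points) and quartiles (bars) of 7391 protein-coding genes by the length of their longest transcript, where the ratios of replicate 3 climb to 0.87 and 0.98 above 8000 bases and those of replicate 2 over 1 stay near 0. Right, medians of chromosome 4 (filled, 55 genes) and of the other arms (open, 7323 genes) within 3 length classes, in the same colours and marker shapes, with chromosome 4 higher in replicate 3 in each class.

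Of the 17471 gene rows, 7725 genes (44.2%) had at least 1 CPM in each of the 3 libraries and are called measured here. This 44.2% is the share beside which the number of measured genes in each list below is to be read. A further 5067 genes (29.0%) had no count in any library, and 4679 had counts but fell short of 1 CPM in at least one library. Only 486 genes crossed 1 CPM in some libraries and not in others. The distribution had one broad peak, and a low plateau below 1 CPM. Measured genes had a median of 49.3 CPM, with a 10th percentile of 6.24 CPM and a 90th of 239 CPM. A mean of at least 10 CPM was reached by 6589 genes, of at least 100 CPM by 2134 genes and of at least 1000 CPM by 142 genes.

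**Figure D2:**
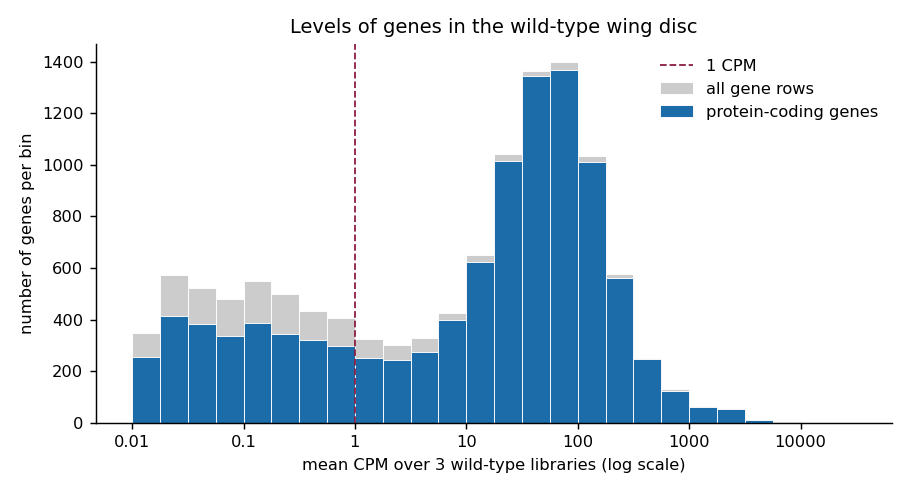
Number of genes by mean CPM over the 3 *wild-type* libraries, in bins of equal width on a log axis, for all gene rows (grey) and protein-coding genes (blue). The 5067 genes with no count are not drawn. The dashed line marks 1 CPM, and the fullest bin, from 56.2 to 100 CPM, held 1398 genes.

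Few genes held a large part of the counts. The 10 highest genes took 7.25 ± 0.47% of the counts (SD, n = 3), the 100 highest 27.6 ± 2.54% and the 1000 highest 64.2 ± 1.44%. To reach 50% of the counts it took 437, 408 and 521 genes in replicates 1, 2 and 3, and to reach 90% it took 3493, 3457 and 3527 genes. The counts of replicate 3 were spread over more genes than those of the other two.

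The highest row in all 3 libraries was FBgn0000556, with 12271, 12770.3 and 12827 CPM. Another of the highest, FBgn0003887, had 6994, 7347 and 5886 CPM. The annotation used here lists neither identifier, and these rows were 2 of 222 without annotation, which together held 5.01, 5.08 and 4.77% of the counts. Gene groups were put together by gene name, so neither row is in any group share given below. Among annotated genes the highest by mean CPM was *mt:lrRNA*, the large ribosomal RNA of the mitochondrion, with 9472, 7567 and 8624 CPM. *Act5C*, a cytoplasmic actin (chromosome X, 5900861 to 5905399), followed with 9168, 8499.9 and 7843 CPM. *eEF2* (chromosome 2L, 21677913 to 21682164), the elongation factor that moves the ribosome along the mRNA, had 9283, 8315 and 6521 CPM. These ranges overlapped, so the order of the 3 genes is not fixed by these libraries.

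Next came genes of the cytoskeleton and of protein folding. *alphaTub84B*, an alpha-tubulin (chromosome 3R, 7086599 to 7088839), had 7592, 7065 and 6357 CPM, and *Hsc70-4*, the constitutive Hsp70 chaperone of the cytosol (chromosome 3R, 15242687 to 15246614), had 7253, 7736 and 5869 CPM. *Hsp83*, the fly Hsp90, had 4625, 4879.7 and 3769 CPM. *ImpE2* (chromosome 3L, 3510974 to 3512681), known as an ecdysone-inducible gene of imaginal discs, was also among the 15 highest rows. It had 5125, 3497 and 5689 CPM, and replicate 2 was the low library. The remaining annotated genes of the 15 were ribosomal or ribosome-bound, apart from *Df31*, which encodes a histone-binding factor that decondenses chromatin and had 3482, 3724 and 3379.5 CPM. *RpL3* had 4318 ± 541 CPM (mean ± SD, n = 3), *RpL41* 4296 ± 405, *RpL7A* 4182 ± 770.1, *RpL5* 3492 ± 506 and *Rack1*, a scaffold protein of the small ribosomal subunit, 3666 ± 562.

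Because longer transcripts yield more fragments, levels of different genes are compared only after division by the length of their merged exons, scaled to the same sum over annotated genes in each library (length-scaled level). On this scale *RpL41*, which has 320 bases of exon and encodes one of the smallest proteins known, stood alone at 24597 ± 1266 (SD, n = 3). The next was *mt:lrRNA* at 11888 ± 1592. *RpS27A*, a fusion of ubiquitin and a ribosomal protein, had a length-scaled level of 7739 ± 534, *RpL39* of 7585 ± 543 and *alphaTub84B* of 7327 ± 336. *RpS15*, *RpS30*, *RpL21* and *RpL14* were also among the first 10, between 6113 ± 775 and 6312 ± 674. The ranges over the libraries of 6 of the 9 neighbouring pairs in this order overlapped, so that most neighbours in this order do not differ beyond the spread of the libraries.

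Protein synthesis was the largest named function. Of 81 genes for cytosolic ribosomal proteins, 77 were measured, and together they took 15.3, 17.2 and 12.9% of the counts, which is 31.5 ± 2.43% of the length-scaled level (SD, n = 3). Replicate 3 was the lowest library for 69 of the 77 genes, against 3762 of all 7725 measured genes. Their longest transcripts had a median of 877 bases, against 2099 bases over all measured genes. Translation factors took 2.84 ± 0.270% of the counts with 43 of 52 genes measured. FBgn0000556, the highest row, has no gene name here and is not in this share, whatever its function. *eIF4A*, the helicase that opens mRNA leaders, had 3412, 3591 and 2650.0 CPM and *eEF1gamma*, a subunit of the elongation complex, 2456, 2810.0 and 2159.7 CPM. All 32 cytosolic and mitochondrial tRNA synthetases were measured, among them *AlaRS* with 723, 619.9 and 499 CPM and the mitochondrial *GluRS-m* with 7.57, 8.41 and 7.55 CPM.

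Several ribosomal protein genes occur as pairs of related copies, and in some of them one copy held nearly all the counts. This set of pairs was chosen after the values had been seen. *RpS5a* had 3371, 3817 and 2807 CPM while *RpS5b* had 0.336, 0.431 and 0.329 CPM. *RpS19a* had 1542, 1842 and 1286 CPM and *RpS19b* 2.38, 3.09 and 3.58 CPM, and *RpL22* had 625, 596 and 597 CPM beside 2.14, 0.862 and 1.21 CPM of *RpL22-like*. *RpL10Ab* and *RpS28b* averaged 2491 ± 414 and 1455 ± 63.8 CPM, and their partners *RpL10Aa* and *RpS28a* had no count in any library. Both copies were well measured in other pairs. *RpS14a* and *RpS14b* had 1301 ± 222 and 677 ± 108 CPM, *RpL34b* and *RpL34a* 931 ± 222 and 379 ± 47.7 CPM, and *RpS15Aa* and *RpS15Ab* 1861 ± 231 and 218 ± 16.1 CPM (mean ± SD, n = 3 each). How reads that match several places were counted is not given in the sources used here, so the split between near-identical copies is uncertain.

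Genes for protein folding and turnover were measured in part or in full. Of 24 heat shock protein genes 12 were measured (50%, against 44.2% of all gene rows), with 2.07 ± 0.156% of the counts. Besides *Hsc70-4* and *Hsp83*, the small heat shock proteins *Hsp27* and *Hsp23* had many counts, with 2899, 2835 and 3003 CPM and 2646, 2165 and 2630.5 CPM. *Hsc70-3*, the Hsp70 chaperone of the endoplasmic reticulum, had 1792, 1492 and 1579.6 CPM. The stress-inducible *Hsp68* stood at 6.34, 7.98 and 4.34 CPM and *Hsp22* at 1.56, 1.58 and 1.54 CPM. All 7 CCT chaperonin subunits, which fold actin and tubulin, were measured and lay between a mean of 623 CPM for *CCT3* and 849 CPM for *CCT5*. The proteasome list took 1.02 ± 0.120% of the counts with 34 of 48 genes measured (70.8%). Its regulatory subunit *Rpn2* had 744, 662 and 574 CPM and the core subunit *Prosalpha6* 463, 441 and 355 CPM. Per length, *Prosalpha6* was the highest of the proteasome list, with a level of 717 ± 57.6 (SD, n = 3).

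Mitochondrial genes came from 2 genomes. The mitochondrial genome held 1.51, 1.18 and 1.27% of the counts, with 16 of 37 genes measured (43.2%, close to the 44.2% of all gene rows). Of its mRNAs *mt:CoI* had 2221, 1641 and 1587 CPM and *mt:CoIII* had 1515, 1140.5 and 1169 CPM, both subunits of cytochrome c oxidase. Nuclear genes of the respiratory chain and ATP synthase took 1.11 ± 0.107% of the counts, with 65 of 90 genes measured. *ATPsynC* and *ATPsynbeta*, subunits of ATP synthase, had 2089, 2025 and 1822 CPM and 1861, 1620.2 and 1424 CPM. All 71 mitochondrial ribosomal protein genes were measured, with mean CPM between 10.9 for *mRpS14* and 124 for *mRpS30*.

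**Figure D3:**
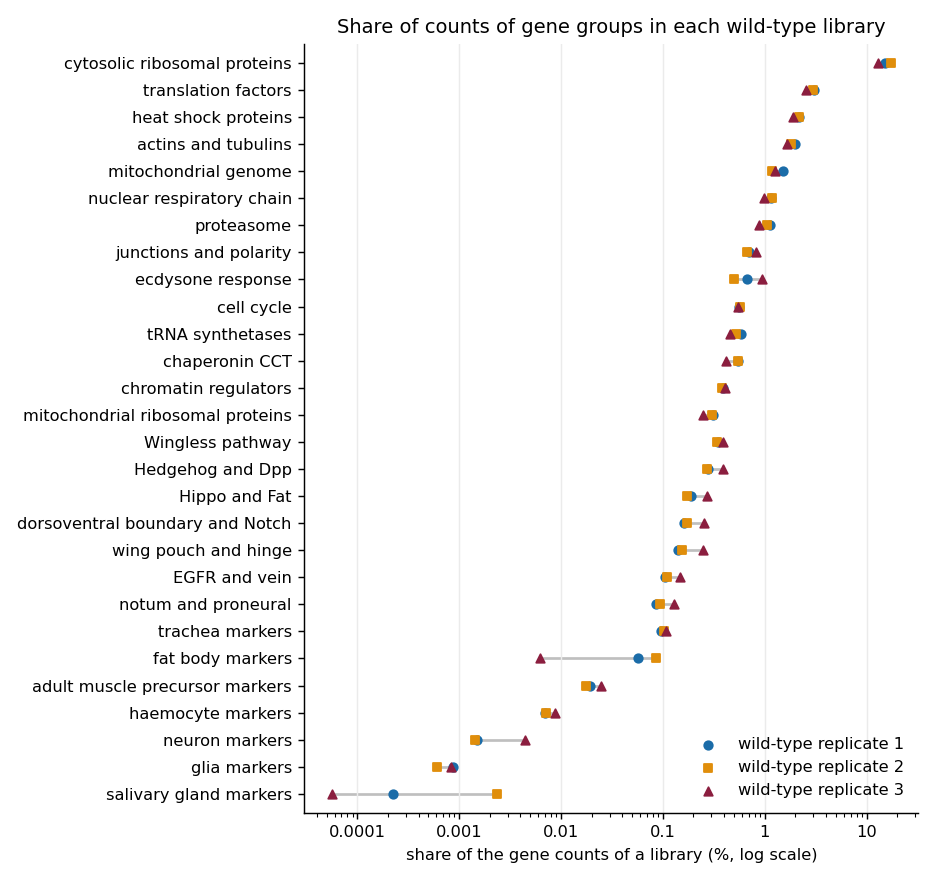
Share of the gene counts of a library taken by each of 28 gene groups, in percent on a log axis, with 1 point per *wild-type* library and a grey line from the lowest to the highest. Cytosolic ribosomal proteins lead with 12.9 to 17.2%, and the widest relative ranges are those of the salivary gland and fat body markers.

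By type of gene, 7391 of 13764 protein-coding genes were measured and took 93.4 ± 0.130% of the counts (SD, n = 3). Of 2453 non-coding RNA genes 150 were measured, with 0.431 ± 0.0924% of the counts. Of the small RNA genes, 17 of 258 for snoRNAs (6.59%) and 2 of 312 for tRNAs (0.641%) were measured, against 6.11% of the non-coding RNA genes. The highest snoRNA row, *snoRNA:M* (chromosome X, 1482492 to 1482590), lies within the span of *sta* (1481797 to 1483413) on the same strand. Both were highest in replicate 2. Overlapping genes may share counts and polyadenylated RNA was selected, so these rows are no measure of the small RNAs. The non-coding gene with the highest CPM outside the ribosomal RNAs was *lncRNA:CR42862* (chromosome 3L, 224106 to 230964), with 1083, 1032 and 2533 CPM, the highest value in replicate 3. *lncRNA:CR42491* (chromosome X, 762615 to 763810) had 684, 594 and 608 CPM and varied less. Counts on rows of nuclear ribosomal RNA differed between the libraries. The row *pre-rRNA:CR45845* had 422, 1553 and 645 CPM and *28SrRNA:CR45844* 275, 801 and 360.0 CPM, with replicate 2 the high library for both. Rows of the ribosomal DNA together held 0.118, 0.386 and 0.167% of the counts. None of 111 rows for the canonical histones was measured and 109 had no count at all. These mRNAs end without a poly(A) tail and their genes are near-identical copies, so these values are no measure of their transcription.

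Genes that pattern the disc were nearly all measured. Of the 97 genes in 7 lists for signalling, territories and growth control, 95 were measured, that is all but *l(1)sc* and *ru*, against 44.2% of all gene rows. Another 6 listed genes were not analysed here. The 97 genes took 1.32, 1.31 and 1.83% of the counts. Their median was 96.8 CPM, and the median of their ranks by CPM was 2207 among all gene rows. Replicate 3 was the highest library for 74 of the 95 genes, against 2806 of all 7725 measured genes. The longest transcript of the 95 genes had a median of 3926 bases, against 2099 bases over all measured genes. On the length-scaled level, 92 of 96 neighbouring pairs in the order of the 97 genes had overlapping ranges, so that order is mostly not resolved.

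In the Hedgehog and Dpp list all 20 genes were measured. The ligand *hh* had 67.3, 79.9 and 66.1 CPM, and *en*, the selector of the posterior compartment in which *hh* is made, had 81.0, 76.0 and 109.8 CPM. The Hedgehog receptor *ptc* had 135, 154 and 165 CPM, and the signal transducer *smo* had 133, 86.0 and 136 CPM. The transcription factor of the pathway, *ci*, had 172, 157 and 578 CPM, with replicate 3 more than 3-fold above the others. The *dpp* ligand had 46.7, 36.7 and 69.7 CPM. The second BMP ligand, *gbb*, had 248, 308 and 208 CPM. On the length-scaled level *gbb* led the list with 276 ± 40.8 (SD, n = 3), against 18.3 ± 7.31 for *dpp*, and the ranges of both ligands did not overlap.

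Dpp receptors and targets were measured throughout. *tkv*, the type I receptor, had the highest CPM of the list, 586, 451 and 648. The type II receptor *put* had 171, 164 and 178 CPM and *Mad*, the transducer that carries the signal to the nucleus, 116, 125 and 122 CPM. Of the targets, *salr* had 256, 287 and 273 CPM with a narrow range, while its neighbour *salm* had 72.9, 71.5 and 187 CPM and *bi* 19.9, 35.2 and 94.9 CPM, both highest in replicate 3. *Dad*, an inhibitor that Dpp induces, had 81.1, 70.1 and 153 CPM, and *brk*, a repressor of Dpp targets, 44.4, 43.6 and 108 CPM. *kn*, a Hedgehog target, had 21.3, 21.9 and 46.5 CPM, the lowest CPM of the list. The glypicans *dally* and *dlp*, which bind both ligands at the cell surface, had 204, 194 and 385 CPM and 144, 114 and 172 CPM.

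In the list for the dorsoventral boundary all 9 genes were measured. The receptor *N* had 472, 517 and 759.6 CPM. Its ligand *Ser* had 292, 347 and 370.3 CPM, and *fng*, the glycosyltransferase that tunes *N* to its ligands, had 226, 262 and 251 CPM. On the length-scaled level *fng* was the highest of the 9 genes with 232 ± 24.2 (SD, n = 3), followed by *ap*, the dorsal selector, with 123 ± 54.0. In CPM, *ap* had 256, 198 and 402. The wing selectors *vg* and *sd*, whose proteins act as a complex, had 102, 154 and 194 CPM and 183, 176 and 481 CPM. Replicate 3 was the highest library for both. *Su(H)*, the DNA-binding partner of activated Notch, had 27.2, 20.8 and 32.4 CPM and *ct*, a target confined to the boundary within the pouch, 4.54, 7.19 and 24.3 CPM, the lowest of the list on both scales.

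In the Wingless list *arm*, the fly β-catenin, which also serves cell junctions, had 1952, 1841 and 1477 CPM and was the highest gene on both scales. The receptor *fz2* had 314, 302 and 539 CPM and the co-receptor *arr* 348, 356 and 395 CPM. Of the genes for the complex that destroys Arm, *Axn* had 143, 130.1 and 198 CPM, *sgg* 81.0, 95.9 and 226 CPM and *Apc* 87.2, 69.7 and 101 CPM. Of the Wnt ligands analysed, *Wnt5* had 89.2, 81.1 and 120.1 CPM, *Wnt6* 42.8, 45.1 and 38.9 CPM and *Wnt4* 4.25, 5.10 and 9.63 CPM. Of the feedback genes, *nkd* had 103, 110.2 and 251 CPM, *fz3* 52.4, 60.6 and 54.6 CPM and *Notum* 18.0, 17.5 and 33.4 CPM. *Dll* had 46.0, 54.1 and 107 CPM and *sens*, which marks sensory organ precursors, 8.24, 5.75 and 11.5 CPM. *pan*, the TCF factor of the pathway, lies on chromosome 4 and had 25.6, 25.5 and 106 CPM, again highest in replicate 3.

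All 11 genes of the pouch and hinge list were measured. *nub*, which marks the pouch, had 269.9, 284 and 339.5 CPM, and *rn*, a pouch gene within it, had 59.1, 65.6 and 186 CPM. *tsh*, which marks the hinge and notum, had 266, 236 and 357 CPM. The Hox cofactor *exd* had 289, 284 and 332 CPM. Its partner *hth*, a proximal gene, had 35.8, 72.1 and 259 CPM, and *zfh2*, which marks the hinge, 87.3, 124 and 478 CPM. These last 2 genes had the widest ranges of the list, with replicate 3 the high library and longest transcripts of 6557 and 11695 bases. *tio*, a relative of *tsh*, had 55.2, 48.9 and 74.3 CPM.

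Notum and proneural genes spanned a wide range. The Iroquois genes of the lateral notum, *ara*, *caup* and *mirr*, had 170.0, 189 and 159, 128, 163 and 172 and 101, 93.7 and 174 CPM. *pnr*, the selector of the medial notum, had 40.1, 51.9 and 48.7 CPM and its cofactor *ush* 48.1, 50.4 and 68.2 CPM. *eyg* and *toe*, a pair of related genes of the notum, had 41.2, 60.7 and 48.7 CPM and 39.4, 55.7 and 43.6 CPM. Of the proneural genes *sc* had 42.3, 39.5 and 47.4 CPM and *ac* 27.1, 22.8 and 30.0 CPM. *ase*, a marker of neural precursors, had 2.26, 1.87 and 2.81 CPM, and *l(1)sc*, another gene of the same complex, 0.168, 0.144 and 0.175 CPM. *emc*, whose product blocks proneural proteins, had 187, 159 and 434 CPM and was the highest of the list on both scales.

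In the EGFR list 11 of 12 genes were measured. The receptor *Egfr* had 536, 534 and 564 CPM, and the ligands *spi* and *vn* had 168, 187 and 188 CPM and 14.4, 13.8 and 41.9 CPM. The length-scaled level of *spi* was 184 ± 20.2 and that of *Egfr* 144 ± 14.1 (SD, n = 3 each), and the range of *spi* lay above that of *Egfr*. Of the proteases that release ligands, *rho*, a marker of future veins, had 4.61, 4.38 and 7.28 CPM and *ru* 0.889, 1.08 and 0.746 CPM. The secreted inhibitor *aos* had 22.8, 25.9 and 25.5 CPM, the intracellular inhibitor *sty* 14.5, 23.4 and 52.6 CPM, and *bs*, which marks intervein cells, 37.7, 36.8 and 93.6 CPM.

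All 12 genes of the Hippo and Fat list were measured. The cadherin *ft* had 478, 356 and 635 CPM, with a longest transcript of 16852 bases, and *ex*, an upstream regulator and target of the pathway, had 281, 266 and 718 CPM. The kinases *hpo* and *wts* had 161, 137 and 129 CPM and 45.7, 51.1 and 89.4 CPM, and the adaptor *mats* 94.1, 83.2 and 90.4 CPM. *kibra*, an upstream activator of the kinases, had 37.5, 35.3 and 54.4 CPM. *yki*, the co-activator that the kinases restrain, had 70.9, 89.1 and 86.6 CPM. On the length-scaled level *yki* (99.3 ± 15.1), *mats* (95.7 ± 9.57) and *hpo* (93.1 ± 8.51) had overlapping ranges (SD, n = 3 each).

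**Figure D4:**
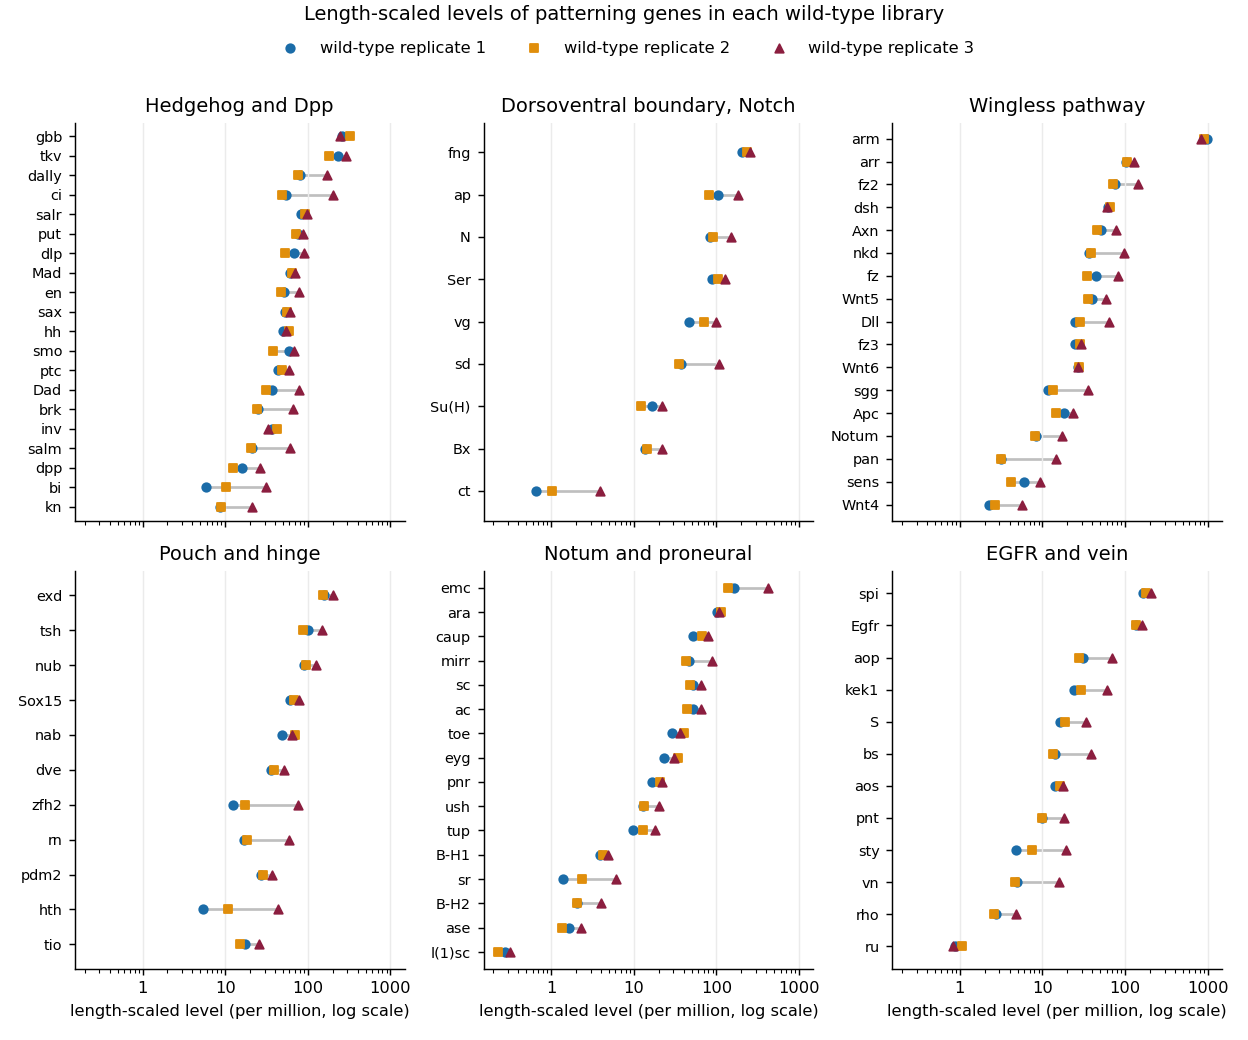
Length-scaled levels of the genes of 6 patterning lists in each *wild-type* library, on a log axis, with genes of a list in order of their mean and a grey line from the lowest to the highest library. Most triangles (replicate 3) lie to the right, and only *l(1)sc* and *ru* among these genes were below 1 CPM in a library.

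Selectors of other body regions were measured in part. Of 8 Hox genes 2 were measured (25%), against 44.2% of all gene rows. *Antp*, the Hox gene of the thoracic segment that bears the wing, had 15.7, 26.2 and 57.4 CPM, and *Ubx*, the Hox gene of the haltere disc, 1.51, 2.23 and 4.19 CPM. *lab* and *Scr* stayed below 0.5 CPM in every library, *pb* had 2 counts in replicate 2 alone, and *Dfd*, *abd-A* and *Abd-B* had no count. Of 9 eye disc selectors 4 were measured (44.4%), a share close to that of all gene rows. *eya* had 34.2, 34.1 and 30.4 CPM, *dac* 17.9, 26.7 and 31.8 CPM, *Optix* 16.1, 17.5 and 19.1 CPM and *so* 16.7, 17.0 and 17.9 CPM. The eye selector *ey* had 0.288, 0.287 and 0.636 CPM, from 12, 4 and 29 counts, and its relative *toy* had no more than 1 count in any library.

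All 29 genes of the cell cycle list were measured, and they took 0.561, 0.574 and 0.544% of the counts. The mitotic kinase *polo* had 545, 524 and 514 CPM. The mitotic cyclins *CycB* and *CycA* had 443, 462 and 428 CPM and 375, 365 and 354 CPM. *PCNA*, the sliding clamp of DNA replication, had 329, 374 and 321 CPM and the helicase subunit *Mcm7* 315, 351 and 241 CPM. Per length, *PCNA* was the highest of the list with a level of 585 ± 34.3, against 325 ± 15.9 for *polo* (SD, n = 3 each). *stg*, the Cdc25 phosphatase that triggers mitosis, had 59.5, 72.4 and 104 CPM, and *CycE*, which drives entry into S phase, had 53.8, 66.1 and 98.3 CPM. Both were highest in replicate 3. *twe*, the Cdc25 of meiosis, had 5.96, 5.61 and 9.04 CPM. Of the 29 genes, 25 had a highest value less than 1.5 times the lowest, against 5895 of all 7725 measured genes.

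Growth regulators had wide ranges. The median ratio of the highest to the lowest library was 2.29 over the 13 measured growth genes, against 1.30 over all measured genes. Their longest transcripts had a median of 4869 bases, against 2099 bases over all measured genes. Replicate 3 was the highest library for 8 of the 13, against 2806 of all 7725 measured genes. *Akt*, a kinase of insulin signalling, had 93.8, 85.7 and 197 CPM. *Myc*, the growth-promoting transcription factor, had 10.3, 24.7 and 85.6 CPM, and *InR*, the insulin receptor, had 10.8, 27.6 and 89.0 CPM. In both genes replicate 2 was more than 2-fold above replicate 1, and replicate 3 more than 3-fold above replicate 2. Other members had narrow ranges. *Tsc1*, which restrains TOR signalling, had 93.6, 92.8 and 84.6 CPM and *Rheb*, which activates it, 74.0, 62.8 and 68.3 CPM. *Thor*, a translation inhibitor, had 11.6, 16.0 and 6.45 CPM and was lowest in replicate 3. *Ilp8*, the relaxin-like hormone of damaged discs, was near the floor with 2, 6 and 4 counts.

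Of 11 apoptosis genes 9 were measured. The inhibitor *Diap1* had 493, 480.2 and 418 CPM, and the effector caspase *Drice* had 161, 139.6 and 125 CPM. On the length-scaled level *Diap1* had 270.2 ± 8.21 and *Drice* 135 ± 11.9 (SD, n = 3 each), and their ranges did not overlap. Of the inducers of cell death, *rpr* had 23.7, 20.8 and 25.6 CPM and *hid* 19.5, 20.6 and 79.8 CPM, while *grim* had 2 counts in replicate 1 and no count in replicates 2 and 3. *skl* had 8, 2 and 10 counts.

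Ecdysone-responsive genes took 0.677, 0.502 and 0.935% of the counts, most of it from *ImpE2*. After it came *br*, the Broad-Complex that marks the start of metamorphosis, with 436, 522 and 1734 CPM, and *ImpE1*, another ecdysone-inducible gene of discs, with 388, 261 and 586 CPM. The receptor genes *EcR* and *usp* had 34.2, 39.0 and 98.9 CPM and 72.8, 81.4 and 77.2 CPM. Early response genes were measured throughout, with 69.3, 85.2 and 174 CPM for *Eip75B* and 47.7, 52.8 and 93.7 CPM for *Eip74EF*. The mid-prepupal factor *ftz-f1*, which follows the larval pulse, had 2.09, 3.31 and 9.02 CPM. Replicate 3 was the highest library for 16 of the 18 measured genes, against 2806 of all 7725 measured genes. The longest transcripts of the 18 genes had a median of 5186 bases, against 2099 bases over all measured genes.

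Epithelial and chromatin genes were measured without exception. All 20 genes for junctions and polarity were measured, with 0.728 ± 0.0812% of the counts. *shg*, the fly E-cadherin, had 651, 572 and 788 CPM, *cora*, a septate junction protein, 651, 721 and 702 CPM and *baz*, an apical polarity protein, 19.9, 20.6 and 39.6 CPM. All 18 chromatin regulators were measured. The highest value was less than 1.5 times the lowest for 14 of them, a share close to the 5895 of all 7725 measured genes. The remodeller *Mi-2* had 780.5, 767 and 694 CPM, and the histone deacetylase *HDAC1* had 534, 527 and 495 CPM. *CoRest*, a partner of Lsd1 proteins, had 154, 186 and 180.4 CPM, and *Su(var)3-3*, the gene of *dLsd1* itself, 51.3, 48.6 and 56.2 CPM. The Polycomb gene *Pc* had 22.7, 17.0 and 24.3 CPM.

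Markers of cells that accompany the disc epithelium had counts in every library. Whether the counts of each marker came from those cells was not tested. All 6 markers of adult muscle precursors were measured, including *twi* with 34.3, 41.9 and 37.3 CPM the FGF pathway adaptor *stumps* with 66.6, 55.0 and 71.7 CPM and *Him* with 10.7, 10.7 and 11.4 CPM. All 5 tracheal markers analysed were measured. *verm* and *serp*, chitin deacetylases of the tracheal lumen, had 426, 489 and 428 CPM and 233, 237 and 243 CPM, and *trh*, the tracheal selector, 59.8, 69.0 and 97.1 CPM. Summed, tracheal markers took 0.0969, 0.103 and 0.108% of the counts and muscle precursor markers 0.0191, 0.0175 and 0.0250%. Of the haemocyte markers 8 of 11 were measured (72.7%, against 44.2% of all gene rows). The scavenger receptor *crq* had 37.0, 30.0 and 45.4 CPM, and the plasmatocyte genes *Hml* and *He* had 3.65, 3.52 and 4.96 CPM and 1.73, 1.51 and 1.93 CPM. Of crystal cell genes, the prophenoloxidases *PPO1* and *PPO2* had 4.42, 5.82 and 8.47 CPM and 5.55, 10.3 and 12.2 CPM, and the selector *lz* had 3 counts in replicate 3 alone.

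Fat body and salivary gland markers differed widely between the libraries. The fat body summed share was 0.0569, 0.0866 and 0.00621% of the counts, and that of the salivary gland 0.000223, 0.00237 and 5.70e-05%. *Lsp2*, a larval storage protein, had 178, 279 and 15.2 CPM, and *Fbp1*, a receptor for larval serum proteins, had 239, 399 and 28.8 CPM. For 5 of the 7 fat body markers replicate 2 was the highest library and replicate 3 the lowest, and *Lsp1gamma* had 64.3, 75.2 and 4.87 CPM. The remaining markers were *apolpp*, a lipoprotein, with 5.79, 3.09 and 2.43 CPM and *Lsp1alpha* with 0.576, 0.503 and 1.25 CPM. The larval cuticle genes *Lcp4* and *Lcp1* had the same order, with 72.0, 202 and 2.70 CPM and 42.2, 96.7 and 4.98 CPM, as did the odorant-binding protein gene *Obp99b* with 24.9, 45.5 and 4.17 CPM. Among other cuticle genes *Cpr49Ac* was high in all libraries, with 416, 279 and 451 CPM. Of 124 cuticle protein genes 17 were measured. The part of attached fat body or cuticle-forming tissue in these values was not tested.

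Markers of other tissues were measured in part or not at all. None of 6 salivary gland markers was measured in every library, although *Sgs7*, a glue protein, had 0.456, 11.3 and 0.197 CPM and *Sgs3* 0.192, 3.52 and 0.219 CPM, highest in replicate 2. None of 9 gut markers was measured, and none had more than 3 counts in a library. Of 13 neuron markers 3 were measured, among them *elav* with 5.74, 6.40 and 25.6 CPM, while the synaptic genes *nSyb* and *brp* stayed below 0.5 CPM. Of 6 glia markers only *moody* was measured, with 6.92, 4.74 and 6.93 CPM, and *repo* had 0.168, 0.216 and 0.197 CPM. Of 17 markers of differentiated muscle 8 were measured (47.1%), a share close to the 44.2% of all gene rows. The muscle actins *Act87E* and *Act57B* had 47.1, 48.8 and 48.2 CPM and 27.3, 26.8 and 24.7 CPM, and *sls*, the fly titin, had 27.8, 26.2 and 53.2 CPM. Per length, *Act87E* had 44.4 ± 3.11 and *Act57B* 28.0 ± 0.555, against 29.1 ± 3.05 for the precursor marker *twi* (SD, n = 3 each). *Mhc*, the myosin heavy chain, had 0.673, 5.03 and 1.32 CPM and *Tm2*, a muscle tropomyosin, 1.49, 4.38 and 1.27 CPM, both highest in replicate 2, whereas the flight muscle actin *Act88F* had 6, 0 and 1 counts. None of 21 antimicrobial peptide genes was measured, and 12 of 185 chemosensory receptor genes were.

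**Figure D5:**
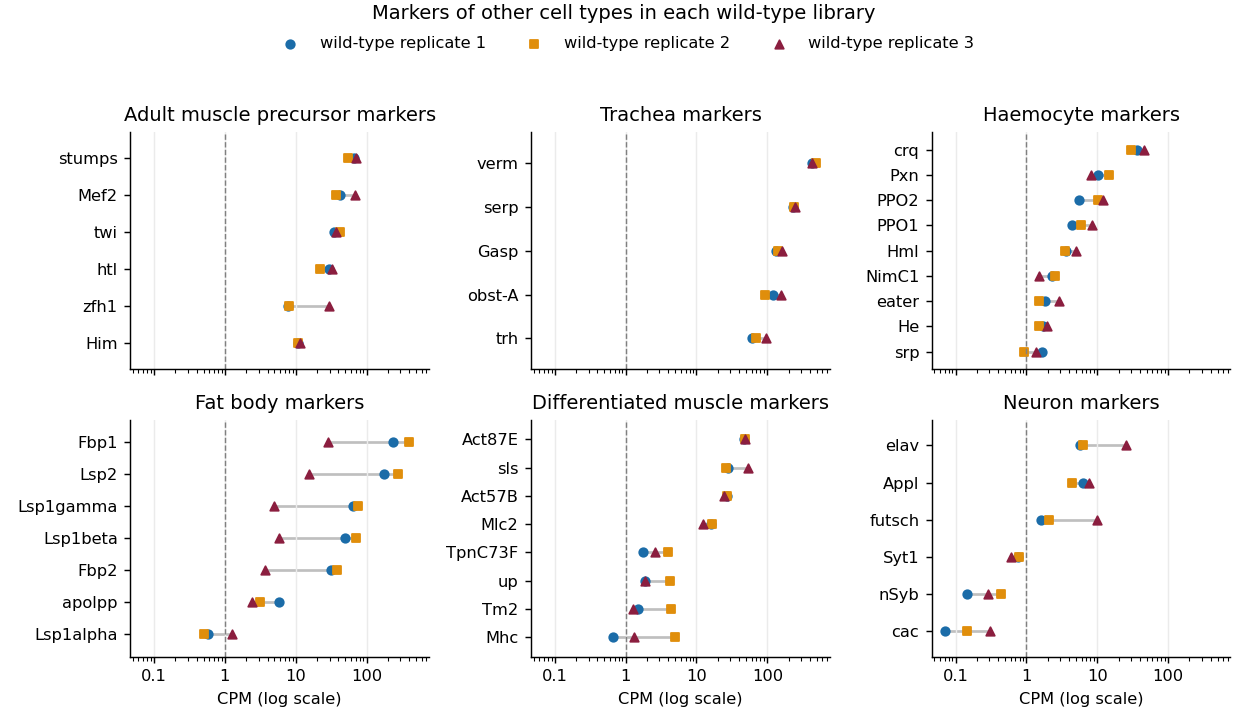
CPM of selected markers of 6 other cell types in each *wild-type* library, on a log axis, with a grey line from the lowest to the highest library and a dashed line at 1 CPM. Adult muscle precursor and tracheal markers stand above 1 CPM in all 3 libraries, and 5 of the 7 fat body markers fall in replicate 3 to values between 3.71 and 28.8 CPM.

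Sex-linked genes were compared with the female label. The 8 Y-linked genes listed had no count. Of 113 genes on the Y chromosome 2 were measured (1.77%, against 44.2% of all gene rows), one of them *FDY* with 8.86, 8.12 and 8.99 CPM. How reads that match several places were counted is not given, and whether the reads of *FDY* came from the Y chromosome was not tested. *Sxl*, whose protein is made in females, had 127, 114.8 and 325 CPM. *lncRNA:roX2*, an RNA of the male dosage compensation complex, had no count, and *lncRNA:roX1* had 0.552, 0.431 and 1.49 CPM. No testis marker was measured. Of 6 female germline markers 3 were measured (50%), against 44.2% of all gene rows, and the median over the list was 0.829 CPM. The highest was *ovo* with 67.6, 79.3 and 201 CPM, and whether these counts came from germline cells was not tested. *aub* had 2.19, 1.87 and 1.47 CPM and *bam* 1.10, 1.65 and 1.05 CPM, while *vas* had 0.336, 0.216 and 0.614 CPM.

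Genes with few exons were measured less often. Of protein-coding genes with 1 exon 26.7% were measured, and of those with 2 exons 42.1%. The share was 60.4% for 3 to 4 exons, 67.5% for 5 to 8 and 67.2% for 9 or more. Among the chromosome arms the share of gene rows measured was highest on chromosome 4, with 62 of 109 genes or 56.9%, followed by X with 50.6%. It was 45.3% on 3R, 44.4% on 3L, 43.8% on 2R and 38.9% on 2L.

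The 3 libraries were compared with each other over all genes. Pearson's r of log2(CPM + 1) was 0.997 between replicates 1 and 2, 0.993 between 1 and 3 and 0.991 between 2 and 3, and Spearman's rho was 0.968, 0.968 and 0.961 for the same pairs over 17471 genes. These correlations describe genes, which are not independent replicates. Over measured genes alone, r was 0.991, 0.967 and 0.962. The chi-square of counts per gene was 32.5, 222 and 133 for the same pairs, so that no pair was a repeat deposit of one library. The common biological coefficient of variation, estimated by edgeR from 9863 genes, was 0.263 with all 3 libraries and 0.129 without replicate 3. The median coefficient of variation of single genes was 18.1% from 1 to 10 CPM and 12.7, 13.1 and 14.4% in the next 3 classes up to and above 1000 CPM. From replicates 1 and 2 alone the same medians were 12.8, 6.96, 6.39 and 7.92%. With all 3 libraries the median did not fall further above 100 CPM.

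The genes that varied most were long. Of the 6589 genes with a mean of at least 10 CPM, the 100 with the largest coefficient of variation had a median longest transcript of 6702 bases, against 2190 bases over all 6589, and 93 of the 100 were highest in replicate 3. The most variable of all was *chrb*, an inhibitor of TOR signalling, with 10.4, 13.4 and 82.9 CPM. Its relative *scyl* had 42.3, 64.4 and 321 CPM. *Syp*, an RNA-binding protein, had 82.4, 159 and 780.4 CPM, *spen*, a large nuclear regulator, 40.8, 81.6 and 356 CPM and *Nipped-B*, the cohesin loader, 36.1, 44.3 and 216 CPM. In these 5 genes replicate 3 was at least 4 times replicate 2, the next highest. *mei-P26* had 6.58, 13.9 and 61.1 CPM, and *Mnt*, which opposes Myc, had 3.43, 9.27 and 36.2 CPM. *lncRNA:CR44999*, whose span on chromosome X covers *Myc*, had 3.17, 7.47 and 27.9 CPM. The unannotated row FBgn0037636 was also among the 10 most variable, and *Lcp4* was the only one of them that was lowest in replicate 3.

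Genes of chromosome 4, a small chromosome rich in heterochromatin, were also higher in replicate 3. Its 55 measured protein-coding genes had a median log2 ratio of 1.10 for replicate 3 over 1 and 1.44 for 3 over 2, against -0.08 and -0.07 over 7323 genes of the other arms. The difference was also present within length classes. For longest transcripts of 4000 to 8000 bases the median of replicate 3 over 1 was 1.66 on chromosome 4 (22 genes) and 0.38 on the other arms (1211 genes), and for those up to 4000 bases it was 0.69 (27 genes) and -0.16 (5874 genes). Each of the 22 chromosome 4 genes of 4000 to 8000 bases was higher in replicate 3 than in either of the others. Most genes of that length on the other arms were too, with 1026 of 1211 higher than in replicate 1 and 965 higher than in replicate 2. For replicate 2 over 1 the median on chromosome 4 was -0.18. Of the 100 most variable genes 15 lay on chromosome 4, which held 52 of the 6589 genes considered. *ci*, *pan* and *zfh2*, described above, are on this chromosome.

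TE families took 0.397, 0.322 and 0.704% of all counts of replicates 1, 2 and 3. Of 171 families 76 reached 1 CPM in every library and 18 had no count. The retrotransposon *copia* had the most counts, with 1364, 1018 and 2221 CPM, followed by *3S18* with 1093, 774 and 1645 CPM. These 2 families made up 61.7, 55.4 and 54.5% of the TE counts. *Doc* had 199, 195 and 663 CPM, *flea* 143, 175 and 481 CPM and *Max* 177, 157 and 328 CPM. Replicate 3 was the highest library for all 5 families, as it was for the share of TE counts as a whole. A separate row named *Max-element* had 84.9, 54.5 and 68.4 CPM and was highest in replicate 1. Some other names, such as *F* and *F-element*, also have separate rows, and whether all rows are distinct families was not tested.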

How the data were processed

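RNA-seq of 3 *wild-type* wing disc libraries was analysed, each from 30 pooled discs. The 3 mutant libraries were not used. The deposited values are raw counts per gene and per TE family, 1 table per library, in the layout of TEToolkit. Per the submitters' notes and the methods of the study, the authors trimmed reads with Trimmomatic 0.36, aligned them to dm6 with STAR 2.5.2a and removed duplicates with Picard. Whether duplicates were removed before this counting, the annotation release, the strand setting and the treatment of reads with several matches are not given in the sources used here. Ambiguous reads would change the split between near-identical genes, and overlapping genes may share counts.

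Counts were divided by the sum over the 17471 gene rows of the library to give CPM. The length-scaled level divides counts by the merged exon length (BDGP6 annotation, Ensembl release 115) and scales them to a sum of 1000000. Of the identifiers 17249 matched this annotation and 222 did not. A gene was called measured at 1 CPM or more in each library. Pearson's r used log2(CPM + 1). The common dispersion was estimated with edgeR 4.0.16 in R 4.3.3, and the estimate was tested on simulated data. Other values were computed with Python 3.11.15, pandas 2.3.3, numpy 2.4.6 and scipy 1.17.1, and figures with matplotlib 3.10.9.

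Named genes were the 15 highest by CPM, the 10 highest by length-scaled level, the highest, lowest and defining members of each list, the 10 most variable at a mean of 10 CPM or more, and the 5 highest TE families and non-coding genes. For lists whose lowest or highest members are given only as counts of measured genes, those members are not named, and one further gene is not reported here. Genes and lists were chosen with earlier results of these data known, and the list of ribosomal protein pairs after its values were seen. There was 1 genotype, so no test between groups was made. The alternatives were other thresholds for a measured gene, TMM (edgeR) and DESeq2 1.42.0 size factors, thinning to the smallest library, other pseudocounts, scaling by length and leaving out each library. Library totals ranged between 13915855 and 45585960 gene counts, so sampling error is small for all but low genes, and limits given for a count of 0 cover counting error only, since PCR reads without molecular identifiers are not independent molecules.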

Additional observations from a re-analysis of the deposited data

How the results depend on the processing

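Of 57 alternative values over 12 results, 46 moved by less than the spread between libraries or stayed within 1.5 times a count, and 11 moved further. Scaling by exon length, which by construction weights short genes more, moved the share of cytosolic ribosomal proteins to 31.5%, of translation factors to 2.55%, of heat shock proteins to 1.85%, of the mitochondrial genome to 2.12% and of the 100 highest genes to 41.4%. The lowest correlation between libraries became 0.985 with a pseudocount of 10 CPM and 0.962 over measured genes alone. Leaving out 1 library in turn, the common biological coefficient of variation ranged between 0.129 (without replicate 3) and 0.307 (without replicate 1). The number of measured genes lay between 7770 and 7823, the ribosomal protein share between 14.1 and 16.3% and the share of the 100 highest genes between 26.5 and 29.0%. With all libraries the number of measured genes was 6942 at a threshold of 5 CPM, 8145 at 0.5 CPM, 7727 with TMM, 7713 with DESeq2 size factors and 7702 after thinning. Depth limits genes below 1 CPM, where replicate 2 had under 13.9 counts. No paired analysis was possible because there was 1 genotype and no comparison between groups.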

Other observations

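Several gene families outside the lists above were measured in part. Of 35 glutathione S-transferase genes 22 were measured (62.9%, against 44.2% of all gene rows), among them *GstD1* with 1189, 1183 and 979.8 CPM. Of 80 cytochrome P450 genes 14 were measured (17.5%), among them *Cyp9c1* with 74.2, 71.4 and 59.4 CPM. Basement membrane genes took 0.174 ± 0.0173% of the counts (SD, n = 3). Their laminin chain *LanA* had 619, 422 and 714 CPM, and the collagen IV genes *Col4a1* and *vkg* had 59.9, 103 and 73.5 CPM and 45.9, 77.8 and 52.7 CPM, with replicate 2 the high library for both collagens. Of the chemosensory receptor genes *Gr64a* had the most counts, with 18.7, 19.3 and 24.9 CPM.

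Genes of ecdysteroid synthesis, which are known to act in the prothoracic gland, were listed after the values had been seen. *sad* had 14.2, 4.17 and 3.58 CPM, *phtm* 9.56, 3.09 and 1.38 CPM and *spok* 3.41, 0 and 0 CPM, with replicate 1 the high library for each. *sro* had 5.67, 5.68 and 4.41 CPM and *dib* 2.28, 1.51 and 2.06 CPM. *shd*, the lowest of the measured genes of this list, averaged 1.72 CPM. Between replicates 1 and 2, which otherwise lay close together, *28SrRNA:CR45837* differed most upwards, with 157, 658 and 242 CPM, and *Spn100A* was lower in replicate 2, with 473, 236 and 287 CPM.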
